A study of Mus musculus with 14 samples.

Results

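The voltage-gated sodium and calcium channel genes described here are the protein-coding mouse genes named Scn with a number and those whose names start with Cacna, Cacnb or Cacng. They are 40 of the 21887 protein-coding genes in the RefSeq table used. Each gene is represented by its strongest H3K4me3 summit, by mean over the 13 libraries, lying inside the gene or within 2 kb of either of its ends. Such a summit was found for 36 of the 40, beside 15248 protein-coding genes in all. The other 4 genes, Scn7a, Scn10a, Scn11a and Cacng1, have no called summit, so no level is given for them. In all, 526 of the 153207 deposited summits lie within 2 kb of these genes, and all of them entered the tests.

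H3K4me3, trimethylation of lysine 4 of histone H3, marks the starts of active and poised genes, and it was measured in prefrontal cortex with an antibody pull-down of nucleosomes followed by sequencing (ChIP-seq). The mice were adult male C57BL/6J animals of 10 to 12 weeks, which the sample fields give as C57BL/6. Controls lived in divided cages with no aggressor (3 libraries), and the stressed groups met an aggressive CD1 mouse each day for 10 days (CSDS10, 5 libraries) or 30 days (CSDS30, 5 libraries) and otherwise lived next to such a mouse behind a perforated divider. Stressed mice were also tested for behaviour before the end, and tissue was taken 24 h after the last defeat. All libraries carry the same batch date. Whether each library is a separate animal is not stated in the labels, and p-values here speak only of how far these libraries differ among themselves. An input library was not analysed here.

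Voltage-gated sodium channels carry the rising phase of the action potential, and voltage-gated calcium channels turn depolarisation into calcium entry that drives transmitter release, firing patterns and gene expression. Each channel is built on a large pore-forming alpha or alpha1 subunit, which auxiliary subunits bring to the membrane and tune. In cortex, sodium channels are concentrated at the axon initial segment, P/Q- and N-type calcium channels at presynaptic terminals, and L-type channels on the soma and dendrites.

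The promoters of these genes differ widely in sequence. RefSeq promoter windows (GRCm38.p6, 250 bases before to 50 after a listed start, printed in the direction of transcription) matched 30 of the 40 genes, with 41 windows in all. Scn3a, Scn3b, Cacna1a, Cacna1g, Cacna1h, Cacna2d4, Cacng1 and Cacng4 were among those with no entry. The 4 windows shown first belong to the 2 genes with the highest and the 2 with the lowest control level among genes whose strongest summit lies within 2 kb of a listed window. CG dinucleotides, the sites of DNA methylation, are in capitals.
Cacng7, chr7:3332575-3332874, plus strand: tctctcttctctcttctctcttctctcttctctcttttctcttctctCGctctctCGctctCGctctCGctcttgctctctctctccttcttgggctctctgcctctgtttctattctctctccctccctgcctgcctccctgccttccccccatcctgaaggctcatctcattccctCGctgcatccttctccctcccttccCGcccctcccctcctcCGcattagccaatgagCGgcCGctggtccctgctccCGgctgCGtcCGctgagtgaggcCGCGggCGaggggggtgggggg
Cacnb1, chr11:98022578-98022877, minus strand: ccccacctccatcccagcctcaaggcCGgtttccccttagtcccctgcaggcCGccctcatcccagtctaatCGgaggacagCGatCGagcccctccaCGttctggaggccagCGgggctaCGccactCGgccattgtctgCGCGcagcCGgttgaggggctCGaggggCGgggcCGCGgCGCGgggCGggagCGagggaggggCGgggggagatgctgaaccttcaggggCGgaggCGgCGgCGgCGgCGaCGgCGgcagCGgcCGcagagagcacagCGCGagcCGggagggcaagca
Scn9a, chr2:66634913-66635212, minus strand: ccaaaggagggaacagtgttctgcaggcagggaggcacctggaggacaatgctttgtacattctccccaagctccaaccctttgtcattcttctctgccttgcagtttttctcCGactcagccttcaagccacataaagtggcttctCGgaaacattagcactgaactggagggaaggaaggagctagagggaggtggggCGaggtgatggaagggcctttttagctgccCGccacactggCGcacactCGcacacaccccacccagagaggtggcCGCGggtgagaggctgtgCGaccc
Cacna1s, chr1:136052561-136052860, plus strand: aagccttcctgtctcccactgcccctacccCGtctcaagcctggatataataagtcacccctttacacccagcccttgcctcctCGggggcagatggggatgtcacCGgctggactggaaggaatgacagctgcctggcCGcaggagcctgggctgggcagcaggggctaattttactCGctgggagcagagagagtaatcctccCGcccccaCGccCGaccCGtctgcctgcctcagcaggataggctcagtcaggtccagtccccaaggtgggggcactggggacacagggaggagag
The windows hold 15 CG dinucleotides at Cacng7, 34 at Cacnb1, 9 at Scn9a and 9 at Cacna1s. Cacng7 encodes a gamma subunit of the family that also holds the transmembrane AMPA receptor regulatory proteins (TARPs), Cacnb1 a cytoplasmic calcium channel beta subunit, Scn9a a sodium channel best known from pain-sensing neurons, and Cacna1s the calcium channel of skeletal muscle.

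The next windows belong to 2 genes with several listed starts, Scn2a and Cacna1c. Scn2a encodes a sodium channel of excitatory axons, and Cacna1c the main L-type calcium channel of brain and heart. Scn2a was planned for its history with the site of the repressor REST, searched for below, and Cacna1c was added for its alternative starts.
Scn2a, upstream start, chr2:65620519-65620818, plus strand: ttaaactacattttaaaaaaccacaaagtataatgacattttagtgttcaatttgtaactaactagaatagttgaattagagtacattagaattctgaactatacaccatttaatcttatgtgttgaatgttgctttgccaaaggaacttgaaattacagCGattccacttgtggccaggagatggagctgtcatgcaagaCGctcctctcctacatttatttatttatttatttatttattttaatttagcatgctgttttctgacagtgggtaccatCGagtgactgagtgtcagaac
Scn2a, inner start, chr2:65668436-65668735, plus strand: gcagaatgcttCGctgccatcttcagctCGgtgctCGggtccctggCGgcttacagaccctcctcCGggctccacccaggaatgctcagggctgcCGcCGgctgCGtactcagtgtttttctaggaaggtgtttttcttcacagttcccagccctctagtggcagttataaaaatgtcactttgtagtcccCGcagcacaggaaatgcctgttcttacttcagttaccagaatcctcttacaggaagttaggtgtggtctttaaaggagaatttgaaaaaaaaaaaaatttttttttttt
Cacna1c, first start, chr6:119196360-119196659, minus strand: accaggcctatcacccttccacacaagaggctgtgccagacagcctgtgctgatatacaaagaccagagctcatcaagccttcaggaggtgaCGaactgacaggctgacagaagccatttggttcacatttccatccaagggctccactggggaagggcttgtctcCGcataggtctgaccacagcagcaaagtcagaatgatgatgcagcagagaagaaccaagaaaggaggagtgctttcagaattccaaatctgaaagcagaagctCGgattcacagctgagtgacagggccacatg
Cacna1c, middle start, chr6:119108446-119108745, minus strand: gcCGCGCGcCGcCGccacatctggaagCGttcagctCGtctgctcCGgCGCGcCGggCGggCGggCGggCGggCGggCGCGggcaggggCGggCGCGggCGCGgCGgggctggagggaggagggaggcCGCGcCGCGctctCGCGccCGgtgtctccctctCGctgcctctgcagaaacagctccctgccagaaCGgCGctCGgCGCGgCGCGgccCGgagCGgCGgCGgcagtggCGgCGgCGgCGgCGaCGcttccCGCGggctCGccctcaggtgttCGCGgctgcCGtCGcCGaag
Cacna1c, last start, chr6:118757925-118758224, minus strand: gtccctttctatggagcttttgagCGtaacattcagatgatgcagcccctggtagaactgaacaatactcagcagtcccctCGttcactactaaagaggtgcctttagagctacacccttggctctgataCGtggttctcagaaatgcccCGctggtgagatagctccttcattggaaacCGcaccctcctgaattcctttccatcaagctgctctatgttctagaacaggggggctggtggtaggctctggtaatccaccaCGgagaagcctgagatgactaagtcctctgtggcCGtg
The middle start of Cacna1c has 57 CG dinucleotides, and the first and last have 3 and 7. The inner start of Scn2a has 9, and the upstream start has 3.

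H3K4me3 at listed starts was read from the strongest summit within 1 kb, in the authors' normalised reads, which are reads at a summit divided by 1 size factor per library. At Scn2a, the inner start held 44.0, 65.2 and 80.2 in the 3 control libraries and the upstream start 16.1, 25.2 and 16.0. Their control means were 63.1 ± 18.2 and 19.1 ± 5.27 (SD, n = 3), and the inner start was higher in every control library. The same order of means was seen in CSDS10, with 66.3 ± 19.5 and 26.1 ± 10.1 (SD, n = 5), and in CSDS30, with 54.6 ± 9.83 and 23.1 ± 11.7. At Cacna1c, only the CG-rich middle start had a summit within 1 kb, with 72.0, 91.2 and 68.8 in control and a mean of 77.3 ± 12.1. Cacna1d, the other L-type channel of neurons, likewise had a summit only at its inner start, which holds 63 CG dinucleotides, with a control mean of 70.0 ± 14.4. Its other listed start has 4 CG dinucleotides.

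The same contrast was seen at the calcium channel beta subunits, which carry alpha1 subunits to the membrane. Cacnb3 held 81.6 ± 16.7 at its inner start and 43.9 ± 9.23 at its outer start in control. Cacnb1 held 103 ± 21.2 at 1 start and 11.8 ± 3.64 at the other. Cacnb4 held 78.3 ± 13.6 at its CG-rich starts, which share a summit, and 41.9 ± 14.3 at the third, while Cacnb2 had a summit at 1 of its 2 starts. Scn8a, the sodium channel of the axon initial segment, and Cacng5 also had a summit at 1 of 2 listed starts. The plot of summits along Scn2a, Cacna1c, Cacna1d and Cacnb3 shows the mark unequal between listed starts. In Cacna1c and Cacna1d the tallest summits lie away from the listed starts of these genes.

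**Figure D1:**
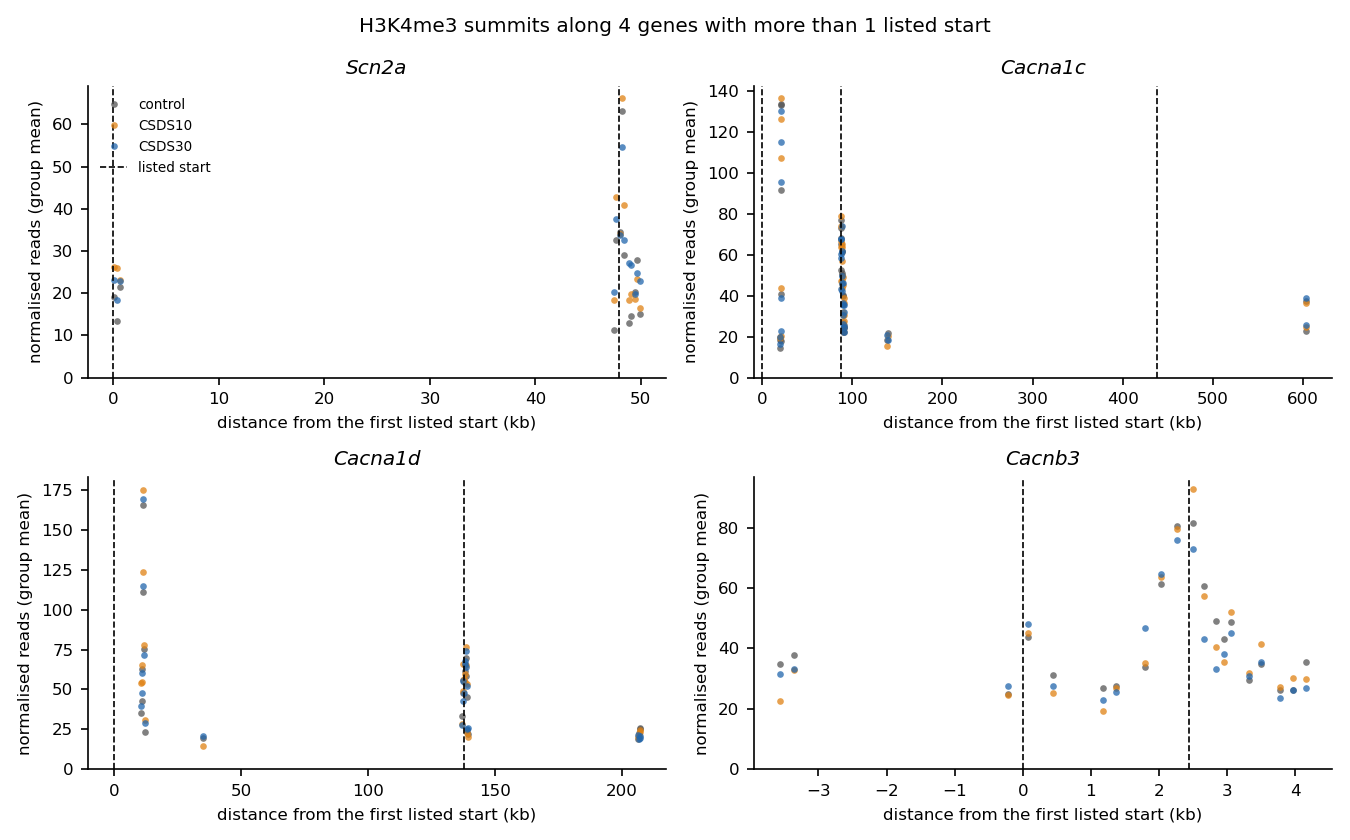
H3K4me3 at every called summit within 2 kb of 4 channel genes, as the group mean in normalised reads (vertical axes, linear), against the distance in kb from the first listed start in the direction of transcription. Dashed lines are listed starts, and the 3 colours are the groups (control n = 3, CSDS10 n = 5, CSDS30 n = 5). The tallest summits of Cacna1c and Cacna1d lie between listed starts, and the 3 groups lie close together at each.

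Across the listed starts, the mark went with CG content. The 29 starts with a summit within 1 kb had a median of 20 CG dinucleotides, and the 12 without had 4.5. Over all 32841 windows of the table the medians were 20 with a summit (16211 windows) and 3 without (16630 windows). Among the 29 channel gene starts with a summit, Spearman's rho between CG count and control level was 0.66, beside 0.36 over the 16211 windows of all genes. These are descriptions across sites read in the same libraries at the same depths, and some starts of 1 gene share a summit.

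Motifs were searched in the 300-base windows on both strands. The GC box GGGCGG, bound by Sp1-type factors, was in 16 of the 41 windows (39.0%), beside 35.7% of all windows. Among windows with a summit within 1 kb, it was in 13 of 29 (44.8%), beside 63.1% of all such windows. The TATA box TATAAA was in 2 of 41 (4.88%), in the inner window of Scn2a and in the outer one of Cacna1d, beside 13.6% of all. Among windows with a summit it was in 1 of 29 (3.45%), beside 6.67%. The cyclic AMP response element TGACGTCA was in 0 of the 41, beside 1.79% of all windows, and the consensus site of NRF1 in 0, beside 0.971%. The left part of the RE1 site of the repressor REST, TTCAGCACC, was in 0, beside 0.371%, and the right part GGACAG in 7 (17.1%), beside 22.2%. The absence of a match concerns only these letters in these windows.

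**Figure D2:**
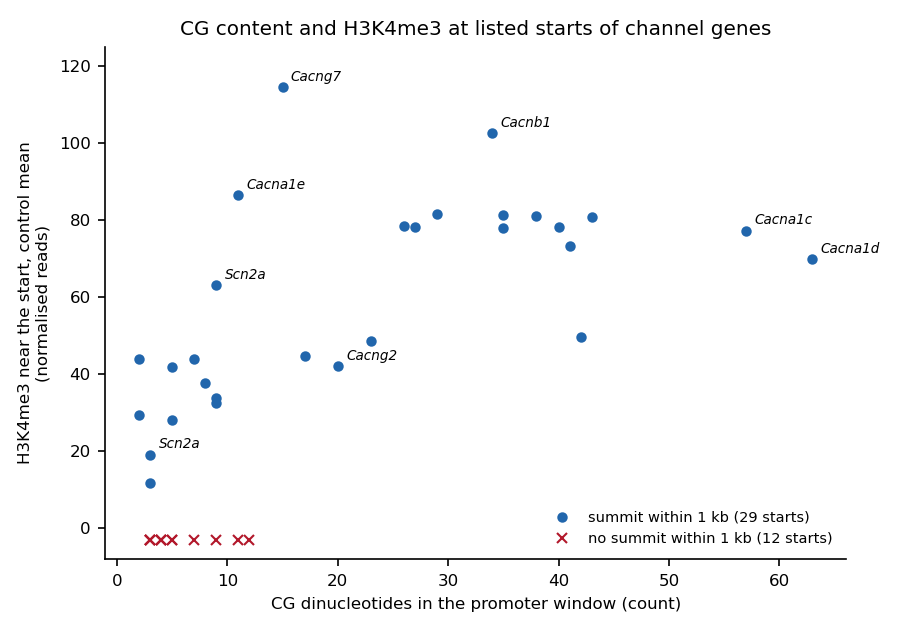
Number of CG dinucleotides in the 300-base promoter window (horizontal axis) against the mean H3K4me3 of the 3 control libraries at the strongest summit within 1 kb of the start (vertical axis, normalised reads) for 41 listed starts of channel genes. Circles are the 29 starts with a summit, and crosses below 0 are the 12 starts without one, which have no level. Starts without a summit all have few CG dinucleotides, and Cacng7, Cacna1e and Scn2a have a higher level than other starts of like CG count.

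Turning from starts to whole genes, the channel genes carried less of the mark at their strongest summit than protein-coding genes in general. Their median in control was 64.5 ± 9.91 normalised reads, beside 97.1 ± 0.784 for the 15248 coding genes (SD of the library medians, n = 3). The medians were 65.2 ± 13.6 and 98.0 ± 5.65 in CSDS10, and 62.1 ± 7.46 and 91.6 ± 5.03 in CSDS30 (SD, n = 5). The median of the channel genes was the lower of the pair in all 13 libraries. In control, 4 of the 36 genes were above the median of coding genes (98.9), and 19 were below 68.5, the lower quartile of coding genes. Tissue is a mixture of cells, and in such bulk libraries fewer cells carrying the mark and less of the mark per cell cannot be told apart.

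The marked regions were, however, broad. The called region of the strongest summit spanned a median of 1038 bp between its outer summits and held 7 summits, beside 773 bp and 5 over coding genes. A channel gene had a median of 14 summits, beside 9, and a median length of 104.1 kb, beside 24.7 kb. Neighbouring summits can share fragments and are not independent.

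**Figure D3:**
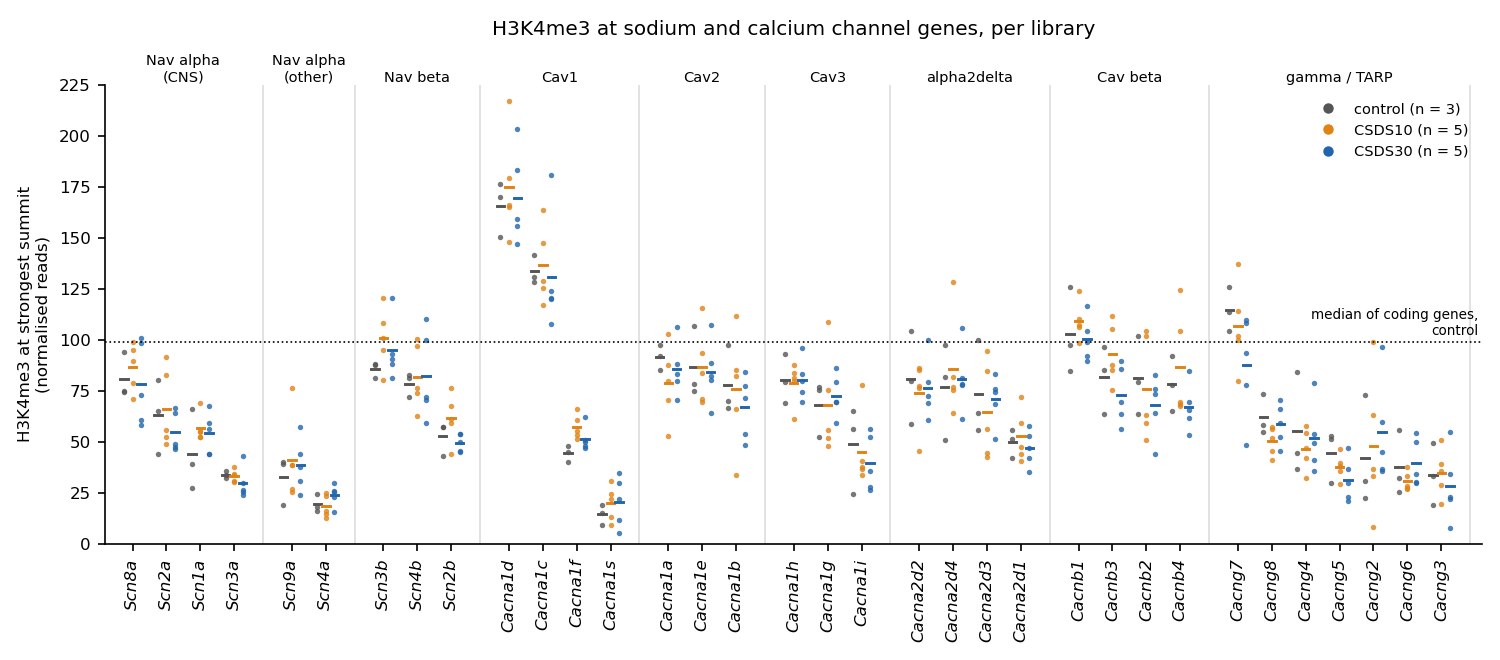
H3K4me3 at the strongest summit of 34 of the 36 genes with a summit (vertical axis, normalised reads, linear), grouped by role and ordered by control mean within each role. Each point is a library, short bars are group means (control n = 3, CSDS10 n = 5, CSDS30 n = 5), and the dotted line is the median of all coding genes in control. Most genes lie below that line, and Cacna1d and Cacna1c lie highest.

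By role, the highest medians in control were those of the L-type alpha1 genes (89.0 ± 4.58), the P/Q-, N- and R-type alpha1 genes (88.1 ± 11.8) and the calcium channel beta genes (86.4 ± 11.1). For all 4 L-type genes the summit read lies within 1 kb of a listed start of another coding gene, as given below. The alpha2delta genes, whose products help carry the channel to the membrane, had 71.7 ± 15.8, the sodium channel beta genes 69.7 ± 3.69 and the T-type alpha1 genes 68.3 ± 13.7. Sodium channel alpha genes of the central nervous system had 53.7 ± 13.7 and the gamma genes 41.5 ± 12.4. The lowest median, 28.5 ± 3.59, was that of the sodium channel alpha genes best known from muscle, heart and peripheral nerve, of which 3 of 6 have a summit. Each of these is the mean ± SD of the class median over the 3 control libraries, and many of the intervals overlap. In the order of control levels, 32 of the 35 neighbouring genes had overlapping library ranges. Those that did not overlap included Cacna1d above Cacna1c and Cacna1c above Cacng7.

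Several of the highest values belong to a position that a neighbour shares. The strongest summit within Cacna1d lies 216 bp from a listed start of Dcp1a, and that within Cacna1c 331 bp from a start of Dcp1b, 2 genes of the mRNA decapping complex. The summit used for Cacna1f lies 142 bp from a start of Ccdc22, that for Cacna1s 414 bp from a start of Ascl5, and that for Cacna2d4 687 bp from a start of Lrtm2. The summit used for Cacnb1 also lies near a coding neighbour, Rpl19, at 507 bp. Listed starts of noncoding genes lie near the summits of Scn4a (540 bp), Cacna2d1 (629 bp), Cacng2 (514 bp), Cacng4 (161 bp) and Cacng6 (318 bp). Whether the mark at these positions belongs to the channel gene was not tested. Cacna1c at its own middle start held 77.3 ± 12.1 in control, against 134 ± 7.07 at the shared position, and Cacna1d held 70.0 ± 14.4 against 166 ± 13.6.

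Among sodium channel alpha genes of the central nervous system, which lie on chromosome 2 (Scn1a, Scn2a, Scn3a) and chromosome 15 (Scn8a), Scn8a had the highest control mean. Scn1a encodes a channel prominent in inhibitory interneurons, and its loss causes epilepsy. Its strongest summit (chr2:66410040, mm10) lies inside the gene, 30797 bp from the listed start. It held 27.3, 66.0 and 39.0 in control, 52.5, 69.2, 54.6, 52.5 and 55.3 in CSDS10 and 67.3, 56.2, 44.2, 59.0 and 44.2 in CSDS30. Control replicate 2 lay within the range of the stressed libraries and the other 2 control libraries below it, so the groups overlapped. The log2 fold change, on log2(value + 1), was 0.44 in CSDS10 (SE 0.23, adjusted p = 1.00 by limma) and 0.36 in CSDS30 (adjusted p = 1.00). Without control replicate 2 the CSDS10 value was 0.78, and without control replicate 1 it was 0.15.

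Scn2a held 44.0, 65.2 and 80.2 in control, 55.8, 91.8, 82.8, 52.5 and 48.8 in CSDS10 and 66.6, 64.0, 47.3, 48.8 and 46.4 in CSDS30 at its inner start (chr2:65668969). Values above 80 occurred in control and in CSDS10, and all ranges overlapped. Scn8a (chr15:100871082) held 74.8, 93.8 and 74.5 in control, 89.4, 98.8, 79.1, 71.1 and 95.1 in CSDS10 and 72.8, 60.9, 101, 58.2 and 98.5 in CSDS30. Here too the groups overlapped, with CSDS30 the most spread. Scn3a, a channel most prominent in the developing brain, was low, with a control mean of 33.8 ± 1.77 at its strongest summit (chr2:65471583). That summit lies inside the gene, 14465 bp from the nearer gene boundary, and no start is listed for Scn3a. A summit 183 bp from a gene boundary held 14.7, 10.4 and 10.3 in control.

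Of the sodium channel genes known from other tissues, Scn9a had control values of 18.9, 40.0 and 39.0, and Scn4a, the channel of skeletal muscle, had a control mean of 19.6 ± 4.36. Scn4a held 24.5, 18.2 and 16.0 in control, 14.8, 12.7, 16.0, 23.7 and 25.2 in CSDS10 and 15.7, 29.7, 23.1, 25.7 and 26.1 in CSDS30. Most CSDS30 libraries were above most CSDS10 libraries, with overlap. The values of Scn4a rest on 9 to 36 reads per library before scaling. The sodium channel beta genes, which encode cell-adhesion-like subunits, ranged in control mean from 52.7 ± 8.08 at Scn2b to 85.7 ± 4.02 at Scn3b. Scn3b (chr9:40269354) held 81.1, 87.7 and 88.3 in control, 95.2, 80.5, 120.5, 108 and 101 in CSDS10 and 81.4, 120.3, 88.3, 93.3 and 90.6 in CSDS30. CSDS10 replicate 2 lay just below the control range and the other 4 libraries of CSDS10 above it.

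Among calcium channel alpha1 genes, Cacna1c held 131, 142 and 128 in control, 126, 164, 129, 147 and 117 in CSDS10 and 121, 108, 181, 119.8 and 124 in CSDS30 at the position shared with Dcp1b (chr6:119175584). CSDS30 replicate 3 stood far above the other libraries of its group. Cacna1a, the P/Q-type channel of presynaptic terminals, had its strongest summit 76191 bp inside the gene (chr8:84414822) and held 85.2, 92.1 and 97.4 in control, 87.8, 103, 52.7, 79.6 and 70.7 in CSDS10 and 79.9, 106, 83.1, 88.1 and 70.3 in CSDS30. Of the CSDS10 libraries, 3 were below the control range. Cacna1e, the R-type channel, and Cacna1b, the N-type channel, had control means of 86.5 ± 17.5 and 77.9 ± 16.9.

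Cacna1f, a calcium channel best known from the retina, was the only gene whose groups did not overlap in a comparison. At the position near Ccdc22 (chrX:7605278) it held 48.2, 45.2 and 40.1 in control, 53.3, 60.7, 55.5, 66.1 and 51.2 in CSDS10 and 50.9, 46.9, 62.1, 47.9 and 50.0 in CSDS30. Every CSDS10 library was above every control library, and CSDS30 overlapped both. The log2 fold change in CSDS10 was 0.36 ± 0.20 (SE), with a 95% interval from -0.05 to 0.76 and adjusted p = 1.00 by limma. At its own listed start Cacna1f had no summit within 1 kb. Among T-type channel genes, which drive burst firing, control means ran from 48.8 ± 21.5 at Cacna1i to 80.4 ± 11.9 at Cacna1h.

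Among auxiliary subunits, the alpha2delta gene Cacna2d1 (chr5:15934892) held 41.9, 55.6 and 51.6 in control, 47.6, 72.0, 40.5, 44.0 and 59.4 in CSDS10 and 47.0, 53.1, 42.1, 35.1 and 58.0 in CSDS30. Cacna2d3 (chr14:29721636) held 55.9, 99.9 and 64.2, then 84.5, 94.6, 56.5, 42.4 and 44.7, then 76.0, 68.7, 51.5, 74.4 and 83.3 in the same order of groups. Both sets of groups overlapped over most of their range. Of the beta subunit genes, Cacnb2 (chr2:14604651) held 63.6, 102 and 79.1 in control, 63.2, 104, 102, 50.8 and 59.4 in CSDS10 and 76.0, 73.4, 44.2, 64.2 and 82.6 in CSDS30. Cacnb4 (chr2:52676322), whose loss causes ataxia in mice, held 65.0, 92.1 and 77.9, then 104, 124, 68.7, 69.5 and 67.5, then 53.2, 65.6, 69.4, 61.6 and 84.8. In Cacnb4, CSDS10 replicates 1 and 2 were above all other libraries and the remaining 3 lay within the CSDS30 range.

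Cacnb3 had the smallest p among the channel genes in CSDS30 against CSDS10. It held 85.2, 63.4 and 96.3 in control, 87.8, 112, 75.3, 105 and 85.4 in CSDS10 and 63.4, 56.2, 69.4, 89.8 and 85.5 in CSDS30 (chr15:98634827). The CSDS30 libraries were mostly lower, with replicates 4 and 5 inside the CSDS10 range. The log2 fold change of CSDS30 against CSDS10 was -0.35 ± 0.16 (SE), with a 95% interval from -0.68 to -0.03 and adjusted p = 0.963 by limma. The unadjusted p of Cacnb3 was above 0.05 in edgeR and DESeq2. The log2 fold change was -0.06 for the sum of all summits of Cacnb3 and -0.01 at its strongest summit near a gene boundary.

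Among the 36 genes, the gamma gene Cacng2 showed the widest spread within groups. Cacng2 encodes stargazin, the TARP that carries AMPA receptors to the synapse. Its summit (chr15:78120102, at -822 bp from the listed start) held 22.4, 73.0 and 30.9 in control, 63.2, 98.8, 36.7, 8.47 and 33.3 in CSDS10 and 59.5, 35.9, 45.2, 36.8 and 96.4 in CSDS30. The highest library, CSDS10 replicate 2, and the lowest, CSDS10 replicate 4, belong to 1 group. The coefficient of variation (CV) within groups was 59.9%, beside 13.7% from counting alone, and was 2.68 times the median of coding genes of like level. A log2 fold change of 0.45 in CSDS30 had a 95% interval from -0.46 to 1.36, so a difference of this size could not be told from 0 here.

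Cacng7 had the smallest p in CSDS30 against control. At chr7:3332934 it held 104, 126 and 113 in control, 114, 137, 80.0, 99.9 and 102 in CSDS10 and 109.6, 48.4, 93.6, 77.9 and 108 in CSDS30. CSDS30 replicates 2, 3 and 4 were below the control range and replicates 1 and 5 within it. The log2 fold change was -0.44 ± 0.20 (SE), with a 95% interval from -0.84 to -0.03 and adjusted p = 1.00 by limma. Without CSDS30 replicate 2 it was -0.24, and the sum of all summits of Cacng7 gave 0.01 in place of -0.44. The unadjusted p of Cacng7 was above 0.05 in edgeR and DESeq2.

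Of the other gamma genes, Cacng5 (chr11:107914933) held 30.0, 51.3 and 52.7 in control, 29.5, 38.1, 39.5, 35.6 and 46.3 in CSDS10 and 29.8, 46.9, 21.0, 36.8 and 23.2 in CSDS30. Cacng6 (chr7:3423763) held 32.1, 55.6 and 25.2, then 37.7, 28.2, 27.3, 27.1 and 33.3, then 29.8, 50.0, 30.5, 34.2 and 54.3. Cacng8, a TARP whose strongest summit lies 21127 bp downstream of its listed start (chr7:3415169), held 73.4, 54.7 and 58.5, then 51.7, 40.9, 57.4, 45.7 and 56.1, then 45.4, 59.4, 52.6, 65.9 and 70.3. In these 3 genes each stressed group overlapped control. Cacng7, Cacng8 and Cacng6 lie side by side on chromosome 7, and their summits are separate.

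Spread within groups exceeded counting error at most of these genes. The median CV within groups was 22.5% over the 36 genes, beside 11.8% from counting alone. Over all coding genes these were 16.5% and 9.86%. Set against coding genes of like level, 23 of the 36 had the larger CV, with a median ratio of 1.12. Cacng2, Cacng3 at 46.7% and Cacna1s at 51.4% were the most variable, and Cacna1f at 10.9% the least. Counting error is taken from read numbers alone, and without molecular identifiers copies of 1 fragment cannot be told from separate fragments.

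Part of that spread followed the library. The median of the channel genes ran from 52.5 in CSDS10 replicate 4 and 53.5 in control replicate 1 to 72.5 in control replicate 2, 73.9 in CSDS30 replicate 5 and 88.2 in CSDS10 replicate 2. CSDS10 replicate 2 held the highest of the 13 values at 16 of the 36 genes, beside 29.6% of all coding genes. The summed level of 6 neuron markers (Rbfox3, Snap25, Syt1, Tubb3, Map2 and Nefl, all with a summit) ran from 262 to 403 in control, 283 to 591 in CSDS10 and 231 to 467 in CSDS30. The same 3 libraries, CSDS10 replicate 2, CSDS30 replicate 5 and control replicate 2, had the 3 highest sums and the 3 highest medians of channel genes. Other neuron lists followed that order only in part. By the sum of excitatory neuron markers, CSDS10 replicate 2 was the highest of all (505). CSDS10 replicate 4, with the lowest median of channel genes, was second highest (393), just above CSDS30 replicate 5 (391). Control replicate 2 was the lowest control library (351). By inhibitory neuron markers, CSDS30 replicate 5 had the highest sum of all (264) and CSDS10 replicate 2 the lowest (137). Control replicate 2 had the highest inhibitory sum of control (220). Sums of striatal neuron markers were highest in CSDS10 replicate 2 (532) and CSDS30 replicate 5 (455), with control replicate 2 (409) below control replicate 3 (418). The part of neuron content in the levels of channel genes was not tested.

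**Figure D4:**
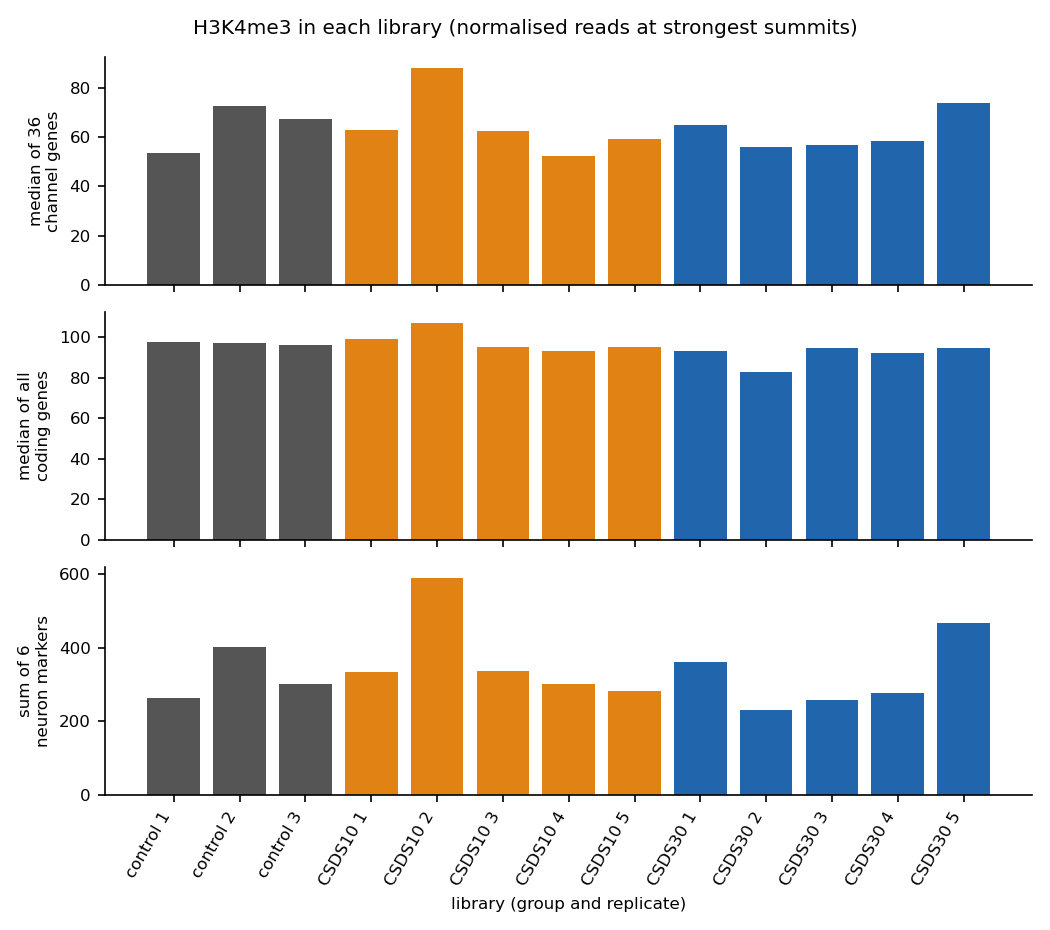
Values in each of the 13 libraries: median of the 36 channel genes (top), median of all coding genes (middle) and summed level of 6 neuron markers (bottom), all in normalised reads at the strongest summit, with axes starting at 0. Colours are the groups. CSDS10 replicate 2, CSDS30 replicate 5 and control replicate 2 are the 3 highest in the top and bottom panels, while the medians of all coding genes lie between 82.8 and 107.3.

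Markers of other cells were also read. All 6 listed markers of cortical excitatory neurons had a summit and summed to 351 to 382 in control, 322 to 505 in CSDS10 and 276 to 391 in CSDS30. Of the inhibitory neuron markers 6 of 8 had one, without Sst and Vip, with sums of 205 to 220 in control, 137 to 226 in CSDS10 and 217 to 264 in CSDS30. The lists of oligodendrocyte precursor, astrocyte, endothelial and striatal neuron markers were complete, while 4 of 7 oligodendrocyte markers had a summit, with none at Mog or Mobp, and microglia lacked Cx3cr1, Csf1r and Aif1. The summed level of the 3 microglia markers with a summit, P2ry12, Tmem119 and C1qa, was 46.9 to 54.5 in control. It was 56.5 to 87.0 in CSDS10 and 58.7 to 90.6 in CSDS30, so every stressed library was above every control library. The sums of every other marker list overlapped between control and each stressed group. The 3 microglia genes were low, with a median control mean of 17.4. Taken singly, 0 of the 3 had groups that did not overlap in CSDS10 against control, beside 2.87% of coding genes. In CSDS30 against control 1 of the 3 did, beside 3.69%. None of these 3 genes was called by limma, and the part of microglia content in the comparisons of channel genes was not tested. Of the muscle markers Myh6, Myh7 and Ttn had no summit, and 2 of 5 had one. Total reads on summits ran from 4512817 to 10887911 per library, and CSDS10 replicate 4 was the shallowest.

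Effects of defeat were tested with limma over all 152270 summits that passed the filter, with Benjamini-Hochberg adjustment at 0.05. None was called in any of the 3 comparisons (background 0.00% each), so none of the 36 genes was called either. At unadjusted p under 0.05, limma gave 4891 of all summits in CSDS10 against control, 5194 in CSDS30 against control and 7795 in CSDS30 against CSDS10. edgeR called 0 in each, with 4599, 4933 and 6838 at unadjusted p under 0.05, and DESeq2 called 0, with 5410, 5752 and 7796. The comparisons against control share the 3 control libraries, and their values are given side by side only.

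In CSDS10 against control, 0 of the 36 genes had an unadjusted p under 0.05, beside 2.80% of the strongest summits of coding genes. Counted by the sign of the log2 fold change, which compares means of log values, as in all counts of higher and lower genes here, 18 were higher and 18 lower, beside 53.3% higher among coding genes, and the median log2 fold change was 0.01 in both. Without control replicate 1, 12 of the 36 were higher, beside 52.2% of coding genes. Without control replicate 2, 27 were, beside 53.4%. Cacna1f was the 1 of 36 whose groups did not overlap, beside 2.87% of coding genes, or 1.65% counting only those higher in CSDS10. The smallest p-values towards higher values were those of Scn1a, Cacna1f and Scn3b, with log2 fold changes of 0.44, 0.36 and 0.22. Towards lower values they were those of Cacng8, Cacna1a and Cacna2d3, with -0.30, -0.25 and -0.21. By role, all 4 sodium channel beta genes and all 4 L-type genes had log2 fold changes above 0, and 6 of 7 gamma genes and all 6 of the other alpha1 genes had ones below 0, none past the threshold. Some of these lay next to 0, such as Cacng2 (-0.01) and Cacna1e (-0.0036), whose plain group means were higher in CSDS10. The L-type values were read near listed starts of other coding genes. At their own listed starts Cacna1c was -0.07 and Cacna1d 0.11, and Cacna1f and Cacna1s had no summit within 1 kb.

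In CSDS30 against control, 1 of the 36 genes, Cacng7, had an unadjusted p under 0.05, beside 4.91% of coding genes, and 0 had groups that did not overlap, beside 3.69%. That count ran from 0 to 3 when 1 library was left out, with 3 without control replicate 1 and 0 without control replicate 3 or CSDS30 replicate 4, and edgeR and DESeq2 gave 0. By log2 fold change 14 were higher and 22 lower, beside 34.1% higher among coding genes. The median log2 fold change was -0.05, beside -0.07. With cyclic loess scaling, chosen after seeing the data, which removes trends with the level, 18 were higher and 18 lower, and coding genes were higher in 48.6%. Towards higher values the smallest p-values were those of Scn1a, Cacna1f and Cacng2 (0.36, 0.20 and 0.45 in log2 fold change). Towards lower values they were those of Cacng7, Cacng5 and Cacnb2 (-0.44, -0.51 and -0.26). All 4 calcium channel beta genes and all 3 P/Q-, N- and R-type genes had log2 fold changes below 0, none past the threshold.

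CSDS30 against CSDS10 tests the difference between durations. Here 1 of the 36 genes, Cacnb3, had an unadjusted p under 0.05, beside 9.74% of coding genes, and 0 had groups that did not overlap, beside 1.12%. Leaving out 1 library gave 0 to 4 such genes, with 0 without CSDS30 replicate 2 or 3, 4 without CSDS30 replicate 5, 3 without CSDS10 replicate 3 and 2 without CSDS10 replicate 1 or 5. By log2 fold change 11 were higher and 25 lower, beside 31.6% higher among coding genes, with a median of -0.08 in both. Without CSDS10 replicate 2, the library with the highest levels, 19 of the 36 were higher, beside 36.3% of coding genes. With cyclic loess 15 were higher, and coding genes were higher in 49.8%. The smallest p-values towards higher values were those of Cacng6, Scn4a and Cacng8 (0.33, 0.38 and 0.21). Towards lower values, after Cacnb3, they were those of Cacnb4 and Cacng7 (-0.34 and -0.32).

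The intervals give the precision for each gene alone, without adjustment for the number of summits tested. In the plot of log2 fold changes, the 95% intervals reached a median of 0.44 to either side against control and 0.38 between durations. They stayed within 1 log2 unit for 35 of 36 genes in CSDS10, 32 in CSDS30 and 34 between durations. Cacna1d had the narrowest interval, from -0.19 to 0.33 in CSDS10 against control, and Cacna1c reached from -0.28 to 0.33. Both were read near starts of Dcp1a and Dcp1b. At their own listed starts the intervals were -0.31 to 0.53 for Cacna1d and -0.46 to 0.32 for Cacna1c. Cacna1s and Cacng2 had the widest.

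**Figure D5:**
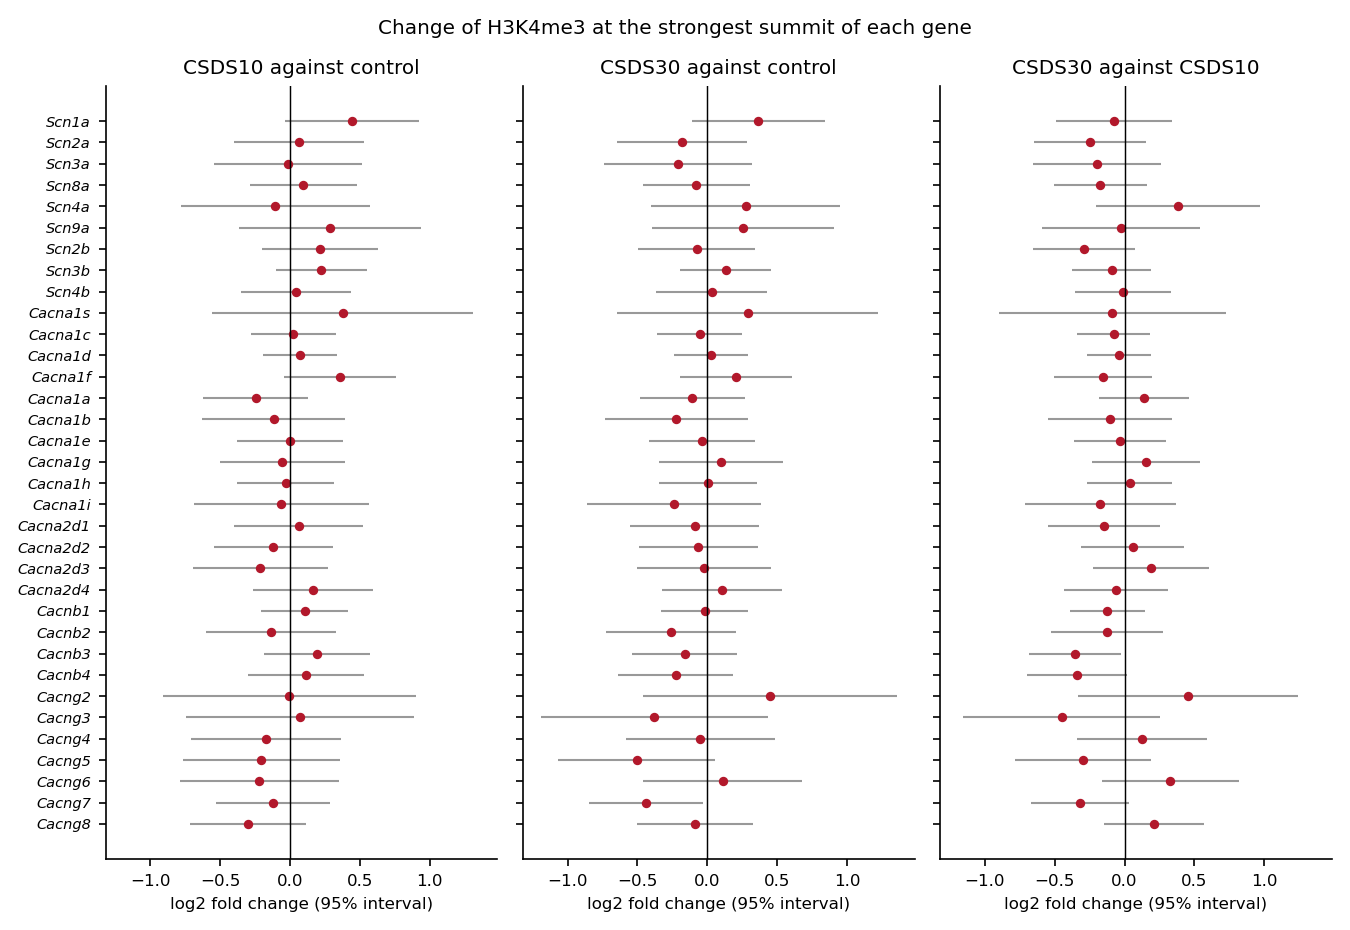
Log2 fold change of H3K4me3 at the strongest summit of 34 of the 36 genes (points, on log2(value + 1)) with 95% intervals from limma, in CSDS10 against control, CSDS30 against control and CSDS30 against CSDS10. The vertical line is no change. Only the intervals of Cacng7 in the middle panel and Cacnb3 in the right panel stay clear of it, and neither passed adjustment over all summits.

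Over the 526 summits of these genes, 17 had an unadjusted p under 0.05 in CSDS10 against control (3.23%, beside 3.21% of all summits). In CSDS30 against control 14 did (2.66%, beside 3.41%), and between durations 22 did (4.18%, beside 5.12%). Some of the summits with the smallest p in a direction are given, looked up after their values were seen. In CSDS10 the one towards higher values lay in Scn3a, 183 bp inside a gene boundary (chr2:65567408). It held 14.7, 10.4 and 10.3 in control, 21.3, 48.0, 30.1, 27.1 and 30.1 in CSDS10 and 29.0, 20.3, 9.47, 13.7 and 15.2 in CSDS30. All CSDS10 libraries were above all control libraries, and CSDS30 overlapped both. The log2 fold change in CSDS10 was 1.30 ± 0.36 (SE), with adjusted p = 1.00 by limma. At the strongest summit of Scn3a it was -0.01.

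In CSDS30 against control, the one towards higher values lay in Scn2a (chr2:65669691), with 4.19, 18.2 and 16.0 in control and 33.7, 35.9, 22.1, 20.5 and 23.9 in CSDS30, without overlap. The one towards lower values lay at Cacng4 (chr11:107794562), with 34.9, 46.0 and 59.6 in control and 21.9, 18.7, 28.4, 28.2 and 37.7 in CSDS30, where only CSDS30 replicate 5 reached the control range. Between durations, a summit upstream of Cacng7 (chr7:3330501) held 19.7, 8.47, 16.9, 8.47 and 13.8 in CSDS10 and 21.1, 37.5, 31.6, 22.2 and 19.6 in CSDS30, towards higher values and with ranges that just overlapped. A Cacnb2 summit (chr2:14604368) held 73.8, 100.2, 74.4, 84.7 and 76.4 in CSDS10 and 57.9, 53.1, 43.1, 63.3 and 69.6 in CSDS30, lower in CSDS30 and without overlap. None of these passed adjustment in limma. They were picked by p-value, so separation of their groups is no further result. At strongest summits of coding genes, 3.69% had groups not overlapping in CSDS30 against control and 1.12% between durations. At the strongest summit of each gene, Scn2a was -0.18 and Cacng4 -0.05 in CSDS30 against control. Between durations Cacng7 was -0.32 there and Cacnb2 -0.12. Scn2a and Cacng7 thus had the other sign. With 1 read worth 0.699 to 1.69, values such as 4.19 and 8.47 rest on few reads.

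Genes that work with the channels were read from 3 lists. All 18 sodium channel partners, such as ankyrins and fibroblast growth factor homologous factors, were tested and none was called. In CSDS10 14 were higher and 4 lower (median 0.06), in CSDS30 against control 6 and 12 (median -0.04), and between durations 5 and 13 (median -0.10). Fgf11, which binds sodium channels, had the smallest p in both comparisons with control, from a control mean of 82.4 ± 7.43 to 67.1 ± 7.27 in CSDS10 (log2 fold change -0.29) and 69.0 ± 13.3 in CSDS30 (-0.27). Calm2, a calmodulin gene, was next in CSDS10 (0.24) and Fgf12 next in CSDS30 (-0.23). Fgf12 (-0.37) and Ank2 (-0.20) led between durations.

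Of 30 calcium channel partners 28 were tested, and none was called. In CSDS10 8 were higher and 20 lower (median -0.04), in CSDS30 against control 4 and 24 (median -0.18), and between durations 5 and 23 (median -0.15). Over coding genes the medians were 0.01, -0.07 and -0.08. Cachd1, an alpha2delta-like protein, led both comparisons with control, with means of 108 ± 8.66 in control, 87.5 ± 9.62 in CSDS10 and 82.4 ± 11.2 in CSDS30, and log2 fold changes of -0.30 and -0.39. In CSDS30 all of its libraries lay below control, as did those of Stx1a, a vesicle fusion protein, and Erc1, an active zone scaffold, which makes 3 of 28, beside 3.11% of coding genes lower without overlap. Stx1a was next in CSDS10 (-0.22), and Unc13a, a vesicle priming factor, next in CSDS30 (-0.34). Unc13a (-0.36) and Erc2 (-0.39) led between durations, from 111 ± 14.3 and 73.1 ± 5.82 in CSDS10 to 88.4 ± 22.9 and 56.7 ± 12.7 in CSDS30. Snap25 and Syt1 belong to this list and to the neuron markers.

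Of 18 other intracellular and leak channel genes, 13 were tested and none was called. Nalf1 and Nalf2 matched no symbol in the table. In CSDS10 4 were higher and 9 lower, in CSDS30 against control 3 and 10, and between durations 6 and 7. Ryr2, the calcium release channel of the endoplasmic reticulum, and Tpcn1, a lysosomal channel, had the smallest p-values in CSDS10, with log2 fold changes of -0.64 and -0.26. Ryr2 ranged from 11.9 to 129.9 in CSDS10 alone, around 67.5 ± 19.8 in control. Unc80, part of the sodium leak channel complex, and Tpcn2 led in CSDS30 against control (-0.35 and -0.30), and Tpcn2 and Ryr3 between durations (-0.34 and -0.41).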

How the data were processed

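The libraries measure H3K4me3 in chromatin digested with micrococcal nuclease, per the labels' protocols. The authors deposited 1 table of 153207 summits in 48695 regions, with a signal per summit and library, namely reads divided by a size factor, and a peak score that was used only to describe the table. Trimmomatic, Bowtie2, MACS2, DESeq2, mm10 and GRCm38.p5 are named in the submitters' processing notes. Their versions and roles, the window around a summit and the handling of duplicate reads: not given in the sources used here. Only summits called by the authors are listed, so a gene without a summit has no value.

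Whole reads were recovered from the deposited signal (100% of values whole within a tolerance of 0.001 reads). Library totals were 4512817 to 10887911 reads. The low-count filter of edgeR kept 152270 summits and left out 937. The test was limma 3.58.1 (R 4.3.3) on log2(signal + 1), with all 3 groups in 1 fit and Benjamini-Hochberg adjustment over all summits. The unit was signal and not counts as deposited, so the count tests of edgeR 4.0.16 and DESeq2 1.42.0 on the recovered reads were alternatives. Each called 0 summits. Genes were named by the 3 smallest p-values in each direction and comparison, with 8 set members given throughout. The strongest summit was taken within 2 kb of the whole gene, interior included. The members and lists were chosen with earlier results of these data known.

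Replicate numbers are shared by the groups in the labels. Deviations of same-numbered libraries correlated with r from -0.29 to 0.37, not all above 0.1, so the numbers were not used to pair libraries. No 2 libraries of a group agreed within sampling noise. Alternatives were other scalings, pseudocounts of 0.5 and 5, no filter, a replicate block, only the groups compared, other choices of summit, the sum of all summits of a gene, and leaving out each library in turn. Cyclic loess and the summit within 1 kb of a listed start were added after seeing the data. The fits were tested on simulated data. The input library was not used. Values of some genes are not reported here.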

Additional observations from a re-analysis of the deposited data

Results flagged for a closer look

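Among 92 groups of 5 libraries tested at these genes, their median and their listed starts, 9 held 1 library that stood apart from the other 4. For a single group, chance alone gives about 1 in 20. These groups share the same libraries and are not independent, so the count was not set against that rate. In 4 of the 9 groups CSDS10 replicate 2 was the high library. It held 69.2 normalised reads at Scn1a, where the others held 52.5 to 55.3. At Scn9a it held 76.2 against 25.4 to 38.6, at Cacna1i 77.6 against 33.9 to 40.5, and at Cacna2d4 128 against 64.4 to 81.9. CSDS10 replicate 4, the shallowest library, was low at Cacna2d2, with 45.7 against 76.2 to 86.2. CSDS30 replicate 3 was high at Cacna1c, with 180.9 against 108 to 124, and at Cacna1f, with 62.1 against 46.9 to 50.9. At the listed start of Scn2b, CSDS30 replicate 1 held 76.7 against 35.9 to 44.2. At the middle start of Cacna1c, CSDS30 replicate 5 held 91.3 against 54.7 to 65.2.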

How the results depend on the processing

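No gene was called in any of the settings tried. With a replicate block for same-numbered libraries, no gene was called, and Cacng2 in CSDS10 was 0.28 in place of -0.0055. With that block 21 of the 36 genes were higher in CSDS10 against control, 12 in CSDS30 against control and 11 between durations. Coding genes were higher in 53.8%, 35.5% and 31.6%. In CSDS10 against control, Cacng2 was also 0.028 with a pseudocount of 5, 0.20 in edgeR, 0.19 in DESeq2 and 0.16 as the sum of its summits. In that comparison Cacna1c was -0.0017 with cyclic loess and -0.068 at its listed start, and Cacna2d3 was 0.12 as the sum. In CSDS30 against control, Cacna1c was 0.044 with cyclic loess, Scn2a 0.18 and Cacna1a 0.0504 at the summit near a gene boundary, and Scn2a 0.19 and Cacng7 0.015 as sums. Between durations, Cacna1c was 0.045 with cyclic loess, Scn1a 0.22 at its listed start or boundary, Cacng7 0.074 and Cacng2 -0.041 as sums. In each case the sign differed from the value reported, and the cause was not tested.

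Leaving out 1 library at a time changed the sign of 11 values. In CSDS10 against control the range was -0.17 to 0.26 for Scn2a, -0.045 to 0.075 for Cacna1c, -0.058 to 0.15 for Cacna2d1, -0.38 to 0.030 for Cacna2d3, -0.027 to 0.24 for Cacnb4 and -0.36 to 0.495 for Cacng2. In CSDS30 against control it was -0.42 to 0.0097 for Scn2a, -0.18 to 0.030 for Scn8a, -0.18 to 0.0078 for Cacna1c and -0.20 to 0.0089 for Cacna2d1. Between durations it was -0.046 to 0.80 for Cacng2. The number of genes higher between durations ran from 9 to 19, beside 30.4% to 36.4% of coding genes.

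With the summit within 1 kb of a listed start, which 24 genes have, 8 were higher in CSDS30 against control and 6 between durations. With the summit near a gene boundary (33 genes), the median level was 53.1 in control and 50.7 in CSDS30. Precision is limited by 3 control libraries and by depth. At the strongest summits a library held 5 to 243 reads.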
